A study of Mus musculus with 4 samples.

Results

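The array labelled 32 h after a critical oxidative stress pulse (cOS-pulse) was compared with the control array, which used 2 of the 4 arrays of the series and all 39429 non-control probes. A ratio was taken for the 19969 probes (50.6%) that the scanner software called well above background on both arrays. NIH-3T3:Per2-Luc cells, a line of mouse fibroblasts that carries luciferase under the promoter of the clock gene *Per2*, were exposed to 5 mM H2O2 for 10 min, and total RNA was hybridized with Cy3 to one-color Agilent arrays at 4 h, 20 h and 32 h. The control received 0 mM H2O2 with an exchange to fresh medium, and its label gives 4 h. Treatment, hours since the exchange of medium and hours in culture therefore cannot be told apart in the comparison at 32 h. Each condition had 1 array, so no difference below has a replicate check and no p-value is given. The control cells carry the reporter too. Levels on the arrays at 4 h and 20 h are given beside those of the pair, as values only.

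All 4 arrays were on the same slide, and between 20762 and 23295 probes per array were well above background, with no saturated spot. Levels are log2 signals minus the 75th percentile of the array, so that 0 is that percentile and 1 unit is 2-fold. They compare arrays for 1 probe and not different genes. Of 12 fibroblast markers, 11 were measured, including *Col1a2*, *Vim*, *Pdgfra* and *Thy1*. All 11 had a negative log2 ratio, between -0.94 for *Lox* and -0.02 for *S100a4*, against 46.8% of all genes below 0. *S100a4*, *Col1a2* (-0.04) and *Vim* (-0.12) lay within the spot error of 0.20. None of the 11 was past 2-fold. The median level of the list was 4.46 in the control, 3.55 at 4 h, 3.54 at 20 h and 4.05 at 32 h. No muscle marker of 5 was well above background in either array of the pair. Other marker lists were measured in part on both arrays, with 5 of 9 blood cell, 2 of 6 epithelial, 2 of 4 endothelial, 2 of 5 adipocyte and 2 of 4 neuronal markers. Over the whole array 50.6% of probes were measured on both arrays, and a gene can have several probes. The measured markers included *Cd68*, *Csf1r*, *Cd3e*, *Krt8*, *Fabp4* and *Kdr* (levels of 1.62 in the control and 1.99 at 32 h). Other members of these lists, among them *Ptprc*, *Hbb-b1*, *Epcam*, *Cdh1* and *Adipoq*, were not well above background on either array. *Cd14*, which fibroblasts can also express, was 2.05-fold higher at 32 h. *Itgam* had levels of 4.35 in the control and 3.47 at 32 h (log2 -0.88), and the neuronal *Snap25* 3.92 and 3.03 (-0.89). The other measured markers of these lists lay between -0.83 and 0.38. The part of other cells in any result was not tested. In bulk RNA, fewer cells of a type and less RNA per cell cannot be told apart.

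Cells that run short of sterol release the factor SREBP2 from the endoplasmic reticulum, and it turns on the enzymes of the mevalonate and cholesterol pathway. INSIG1 holds the SREBP escort protein back when sterol is plentiful, and its own gene is a target of the pathway. In fibroblasts, serum factors, cell spreading and tension drive other programs. Serum response factor (SRF) with its actin-sensing cofactors binds the CArG box in genes of the contractile cytoskeleton, YAP with TEAD drives the secreted proteins CTGF and CYR61, and BMP and TGF-beta signals induce the ID proteins and the inhibitory Smads.

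The promoters of 6 genes are shown because their genes lay past 2-fold and their promoters carry letters known for these factors or, for the CCAAT box, for NF-Y, a factor that often acts beside SREBP. The sequences are the 250 bases before the annotated start in RefSeq, build GRCm38.p6, 5′ to 3′ on the strand of the gene. In the first 4, from cholesterol genes, capitals mark the CCAAT box on either strand (ATTGG when it lies on the opposite strand) and a sterol regulatory element, TCACNCCAC in *Hmgcs1* and its shorter core CACNCCAC, on the opposite strand, in *Insig1*, where N is any base. The longer element contains the core. In the last 2, from contractile genes, capitals mark the CArG box. *Hmgcs1* lies at chr13:119690101-119690350 (plus strand), *Insig1* at chr5:28071162-28071411 (plus), *Idi1* at chr13:8885356-8885605 (plus), *Tm7sf2* at chr19:6067851-6068100 (minus), *Vcl* at chr14:20929148-20929397 (plus) and *Actg1* at chr11:120348496-120348745 (minus).
Hmgcs1: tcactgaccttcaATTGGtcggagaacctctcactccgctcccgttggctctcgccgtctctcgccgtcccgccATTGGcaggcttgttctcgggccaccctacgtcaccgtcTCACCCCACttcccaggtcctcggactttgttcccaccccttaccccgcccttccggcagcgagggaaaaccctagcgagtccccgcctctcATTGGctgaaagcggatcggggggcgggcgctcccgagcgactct
Insig1: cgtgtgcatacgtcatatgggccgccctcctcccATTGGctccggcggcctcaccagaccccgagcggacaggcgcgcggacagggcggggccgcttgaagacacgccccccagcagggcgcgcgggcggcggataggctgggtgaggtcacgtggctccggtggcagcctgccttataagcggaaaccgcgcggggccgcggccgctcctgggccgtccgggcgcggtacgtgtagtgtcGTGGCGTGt
Idi1: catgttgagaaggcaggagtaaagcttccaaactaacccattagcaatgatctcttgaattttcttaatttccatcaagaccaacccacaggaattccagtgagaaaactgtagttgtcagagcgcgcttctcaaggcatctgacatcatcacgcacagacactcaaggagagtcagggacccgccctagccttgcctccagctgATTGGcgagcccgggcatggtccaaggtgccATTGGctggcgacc
Tm7sf2: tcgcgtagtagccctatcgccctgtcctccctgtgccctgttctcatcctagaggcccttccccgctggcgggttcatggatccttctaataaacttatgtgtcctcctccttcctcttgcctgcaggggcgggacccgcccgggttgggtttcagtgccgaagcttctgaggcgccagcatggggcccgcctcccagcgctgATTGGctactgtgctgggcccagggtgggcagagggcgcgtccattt
Vcl: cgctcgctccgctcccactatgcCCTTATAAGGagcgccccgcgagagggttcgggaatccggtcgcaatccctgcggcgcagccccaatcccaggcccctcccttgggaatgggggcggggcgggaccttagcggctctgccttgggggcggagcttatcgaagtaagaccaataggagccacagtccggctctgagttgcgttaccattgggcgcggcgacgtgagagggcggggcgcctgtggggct
Actg1: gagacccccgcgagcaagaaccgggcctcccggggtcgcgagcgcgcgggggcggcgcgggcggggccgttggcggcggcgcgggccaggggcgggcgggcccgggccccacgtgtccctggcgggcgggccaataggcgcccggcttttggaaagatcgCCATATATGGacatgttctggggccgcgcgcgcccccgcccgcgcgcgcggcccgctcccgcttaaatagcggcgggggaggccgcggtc

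Promoters of 17 of the 25 genes in the cholesterol list were matched. A CCAAT box stood in 16 of the 17 (94.1%), all but *Acat2*, against 37.5% of all 27025 gene symbols with a promoter in the table, each counted by any of its promoters of this length. The 9-letter sterol element stood in 1 of the 17, *Hmgcs1*, against 1.22% of all symbols, and the 8-letter core in 3, *Hmgcs1*, *Insig1* and *Acat2*, against 6.05%. The contractile list held the core as often, in 3 of 17 genes with a promoter (17.6%), so the core did not set the cholesterol genes apart. Of 17 genes of the SRF and contractile list with a promoter, 7 held a CArG box, *Actg1*, *Vcl*, *Myl9*, *Cnn2*, *Srf*, *Acta1* and *Actc1*, against 1.62% of all symbols. Of 11 YAP/TEAD genes with a promoter, 7 held CATTCC, the letters TEAD is known for, against 14.4%. Motifs were sought on both strands, and a match describes letters and no binding. The SRF and YAP/TEAD lists are named for these factors, so a higher share of their motifs may come from the choice of members. The counts took in all members with a promoter, whatever their ratio at 32 h.

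The array at 32 h stood close to the control for most of the transcriptome. Of the 19969 measured probes, 209 (1.05%) were at least 2-fold higher and 299 (1.5%) at least 2-fold lower, while 18113 (90.7%) lay within 1.5-fold. The median log2 ratio was -0.01 and the robust SD (from the median absolute deviation) 0.28. Over the 12460 genes with a symbol, each by its brightest measured probe, 138 (1.11%) were at least 2-fold higher and 186 (1.49%) lower, and the median log2 ratio was 0.02. The share of higher probes among the 508 past 2-fold was 41.1%, but 60.5% when scaled to the spike-ins and 63.6% when not scaled. The shift of the ratios with spike-ins rests on 1 of 8 spike-in probes, and without that probe it was 0.003. Past 2-fold, the dimmer part of the probes held 154 of the higher and 198 of the lower ones, and the brighter part 55 and 101.

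**Figure D1:**
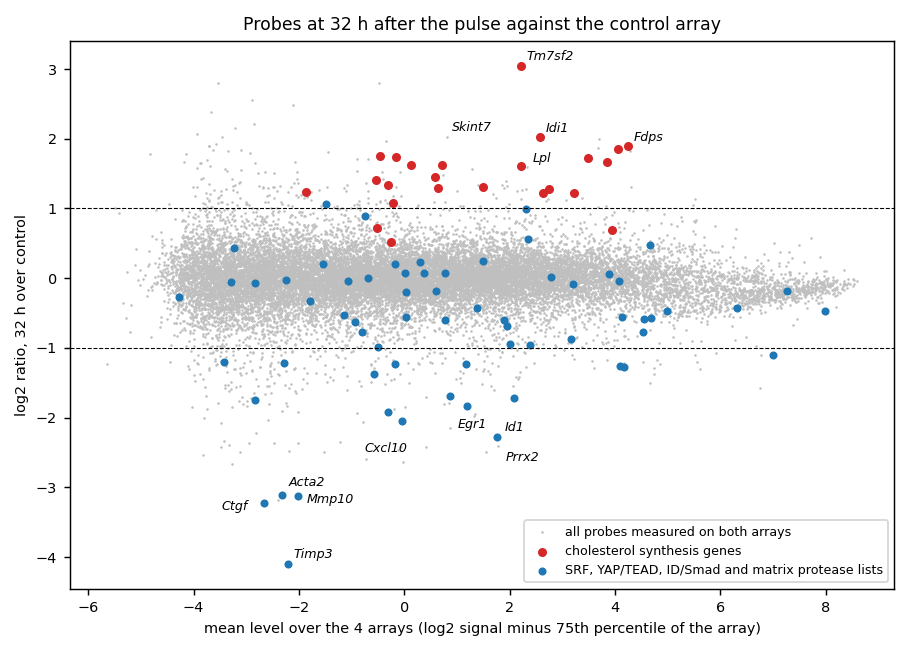
Each point is 1 probe measured on both arrays, by its mean level over the 4 arrays (x axis, log2 signal minus the 75th percentile) and its log2 ratio of 32 h over control (y axis), with dashed lines at 2-fold. Red points are the 24 measured cholesterol synthesis genes, all above 0, and blue points are the members of the contractile, YAP/TEAD, ID and Smad, and matrix protease lists, down to -4.09 for *Timp3*.

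Cholesterol synthesis was the group with the highest median among the 32 gene lists. Of its 25 genes, 24 were measured, 21 of them (87.5%) were at least 2-fold higher at 32 h against 1.11% of all genes, and none was lower. The median log2 ratio was 1.43, and all 24 ratios were above 0. The highest ratio of the list was also the highest of all measured probes.

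*Tm7sf2*, one of the sterol C14-reductases, had levels of 0.59 in the control, 1.96 at 4 h, 2.67 at 20 h and 3.64 at 32 h, an 8.28-fold difference (log2 3.05 ± 0.20, the error of the spot signals from the scanner software). Its second probe gave 2.80 ± 0.21. Both probes thus placed it higher on every pulsed array than in the control. They lie on chromosome 19 (mm9, 6062882 to 6062941 and 6063541 to 6063600).

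The early steps of the pathway make mevalonate and the isoprenoid units. *Hmgcs1*, which makes HMG-CoA, had levels of 2.77 in the control, 2.48 at 4 h, 4.16 at 20 h and 4.50 at 32 h (3.30-fold higher at 32 h). The mevalonate kinase *Mvk* had 2.94, 1.67, 4.12 and 4.16 (2.32-fold). Both were lower at 4 h than in the control and higher at 20 h and 32 h. *Pmvk*, which adds the next phosphate, was 3.04-fold higher with a second probe at log2 1.56, and the decarboxylase *Mvd* 3.38-fold higher. The isomerase *Idi1* had 1.42, 2.26, 3.15 and 3.45 (4.07-fold), and the farnesyl diphosphate synthase *Fdps* 3.23, 3.87, 4.78 and 5.13 (3.72-fold). Both of these stepped upward from each array to the next in the order control, 4 h, 20 h and 32 h.

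The committed sterol steps showed the same direction at 32 h. *Fdft1*, which makes squalene, was 3.07-fold higher, and the squalene epoxidase *Sqle* 3.18-fold, with levels of 2.86, 3.78, 4.25 and 4.53. *Lss*, which closes the rings, was 2.65-fold higher and the C14-demethylase *Cyp51* 3.07-fold. *Sc4mol* (now *Msmo1*), an oxidase of the C4 methyl groups, was 3.63-fold higher, and *Nsdhl*, which acts with it, 2.73-fold. Every enzyme from *Fdft1* to *Nsdhl* in this order was past 2-fold. *Hsd17b7* was 2.52-fold higher by its brightest probe, with log2 1.42 and 0.47 on its other probes. *Sc5d*, a desaturase of the last steps, was 2.47-fold higher. The members short of 2-fold were *Ebp* at log2 0.69, *Dhcr7*, the last enzyme of one branch, at 0.53, and *Srebf2*, which encodes SREBP2 itself, at 0.72 with levels of -1.15, -0.29, -0.18 and -0.44.

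Genes of sterol transport and feedback were in the same range. *Insig1* had levels of -1.36, 0.13, 0.19 and 0.38 on the 4 arrays (3.35-fold higher at 32 h), and the sterol carrier gene *Stard4* 0.00, 0.18, 1.05 and 1.30 (2.46-fold). *Insig1* stood more than 2-fold above the control at 4 h already, whereas *Stard4* did not. *Acat2*, a thiolase that supplies the first step, was 2.12-fold higher. As a list the median difference from the control was 0.44 at 4 h, 1.13 at 20 h and 1.43 at 32 h.

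Fatty acid synthesis, part of which SREBP factors also drive, had a lower median of 0.54 over 13 measured genes of 14. Of the 13, 3 were at least 2-fold higher, against 1.11% of all genes, and none was lower. *Elovl6*, an elongase, had levels of 1.57, 0.68, 2.42 and 2.86 (2.45-fold), the desaturase *Scd2* 5.02, 4.92, 5.95 and 6.15 (2.19-fold), and the desaturase *Fads2* -0.88, -1.32, -0.15 and 0.19 (2.10-fold). *Elovl6* and *Fads2* were lower at 4 h than in the control, and *Scd2* was near it (log2 -0.10). *Fasn*, fatty acid synthase, was at log2 0.67, *Acly*, which supplies cytosolic acetyl-CoA, at 0.80, and *Srebf1* at 0.27.

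**Figure D2:**
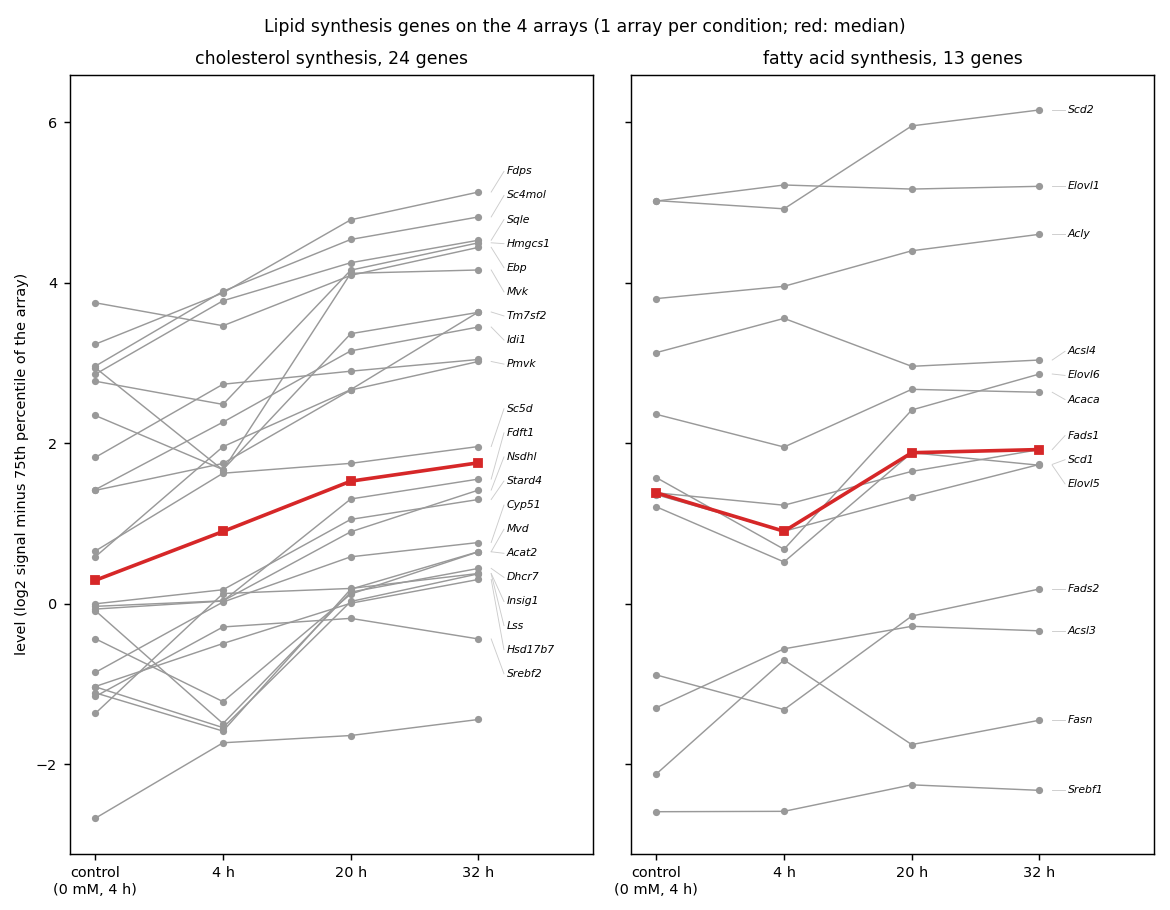
Levels of the 24 cholesterol synthesis genes (left) and 13 fatty acid synthesis genes (right) on the 4 arrays, in log2 signal minus the 75th percentile (y axis), each grey line 1 gene (not all are labelled) and the red line the median level. The median level of the cholesterol genes went from 0.29 in the control to 1.76 at 32 h, and each of the 24 was higher at 32 h than in the control.

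Other brightly measured genes among the largest 15 rises included more genes of lipid handling. *Lpl*, lipoprotein lipase, had levels of 1.82, 1.68, 2.39 and 3.42 (3.02-fold), and *Pnpla2*, the first lipase of stored triglyceride, 1.18, 1.58, 2.37 and 2.57 (2.62-fold). *Lpl* stood at its highest at 32 h and was near the control at 4 h. *Cdo1*, which oxidizes cysteine, had 0.31, -0.72, 1.55 and 1.79 (2.80-fold), *Pdzk1ip1* 0.16, -0.37, 1.11 and 1.78 (3.08-fold), and *Skint7* -0.72, 2.11, 0.54 and 1.31 (4.09-fold). *Skint7* was highest at 4 h, and the other 2 were lowest there. The remaining 10 of the 15 belonged to the cholesterol list. Among dimmer probes the largest rises were those of the second probe of *Tm7sf2*, *Nbeal2* at log2 2.80 ± 0.32, *Abcg4*, a sterol transporter of the ABC family, at 2.56 ± 0.34, the cytokine *Tnfsf14* at 2.49 ± 0.23 and *BC106175* at 2.38 ± 0.34. *Nbeal2* had levels of -4.18, -4.53, -4.04 and -1.38, so that only the array at 32 h stood apart, and *Tnfsf14* had -2.99, -4.20, -0.77 and -0.50.

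Matrix proteases and their inhibitors had 6 of 18 measured genes at least 2-fold lower, against 1.49% of all genes, and 1 higher, with a median of -0.37. *Timp3*, a matrix-bound inhibitor of metalloproteases on chromosome 10 (mm9, 85811696 to 85811755), had the largest fall of all measured probes. Its levels were 0.03 in the control, -0.94 at 4 h, -3.83 at 20 h and -4.06 at 32 h (17.1-fold lower, log2 -4.09 ± 0.28). With normexp background correction its ratio was -3.22.

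The stromelysins *Mmp10* and *Mmp3* were lower as well. *Mmp10* had levels of -0.62, -0.48, -3.25 and -3.75 (8.71-fold lower), and *Mmp3* 1.99, 2.15, 0.45 and 0.15 (3.57-fold lower). Neither was lower than the control at 4 h. *Mmp9*, a gelatinase, was 2.30-fold lower. In the plasminogen system the activator *Plau* was 3.35-fold lower, and the receptor *Plaur* was at log2 -0.94. Enzymes and inhibitors were both among the lower members, and nearer the control were *Timp1* at log2 -0.58, *Timp2* at -0.18 and *Mmp2* at -0.04. The aggrecanase *Adamts5* was 2.09-fold higher, and the probes of *Adamts4* gave log2 0.89 and 1.53. The count of higher members varied from 0 with normexp to 3 when scaled to the spike-ins or not at all.

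By the brightest probe of each gene, the contractile list had the lowest median of the 32, -0.60, with 15 of 16 measured genes below 0, against 46.8% of all genes. Past 2-fold were 3 of them, all lower, against 1.49% of all genes. *Acta2*, smooth muscle actin and a mark of contractile fibroblasts, had levels of 0.04, -2.76, -3.52 and -3.07 (8.65-fold lower, log2 -3.11 ± 0.08). *Vcl*, the focal adhesion protein vinculin, had 0.99, -0.48, -0.84 and -0.92 (3.77-fold lower). *Acta2* and *Vcl* were already low at 4 h, and all pulsed arrays lay below the control. *Actg1*, cytoplasmic gamma-actin, had 7.5, 7.44, 6.67 and 6.39 (2.15-fold lower), and its 4 other probes gave ratios between -1.42 and -0.85. With quantile normalization, spike-in scaling or no scaling, 2 genes passed 2-fold in place of 3. *Tpm1* was at -0.96, *Csrp1* at -0.88, *Tpm4* at -0.77, *Tagln* at -0.69 and *Actb* at -0.48, while *Srf* itself was at -0.18. *Myl9*, a myosin light chain, was well above background in the control and at 4 h but not at 20 h or 32 h, and at least 9.78-fold higher in the control than at 32 h.

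YAP/TEAD targets split. *Ctgf* had levels of -0.05, -4.28, -3.01 and -3.27 (9.31-fold lower), and *Cyr61* 1.08, 0.83, -1.10 and -0.96 (4.14-fold lower). *Ctgf* was at its lowest at 4 h, when *Cyr61* was still near the control. *Thbs1*, thrombospondin 1, was 2.60-fold lower, and the other 13 of the 16 measured genes were within 2-fold, down to -0.99 for *Crim1* and up to 0.47 for *F3*, tissue factor. The share of all genes at least 2-fold lower was 1.49%. The list median was -0.20.

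ID proteins act by tying up bHLH factors, and they were low together at 32 h. In the list with the inhibitory Smads, 7 of 15 measured genes were at least 2-fold lower, against 1.49% of all genes, and none higher, with a median of -0.52. *Id1* had levels of 2.77, 2.64, 1.17 and 0.49 (4.84-fold lower), *Id3* 2.91, 2.75, 1.5 and 1.19 (3.28-fold) and *Id2* 1.49, 2.33, 0.63 and 0.27 (2.34-fold). All 3 were below the control at 20 h and 32 h and not past 2-fold below it at 4 h. *Smad7* had 0.42, 0.56, -0.90 and -0.81 (2.35-fold lower), and *Smad6* -1.09, -3.31, -2.42 and -2.31 (2.32-fold lower). *Ltbp2*, which resembles the proteins that hold latent TGF-beta, was 2.39-fold lower. The ligands themselves stood nearer the control, with *Tgfb1* at -0.04, *Tgfb3* at -0.43 and *Tgfb2* at -0.52 by its brightest probe and -1.45 by another. When each gene was taken as the median of its measured probes, the list median was -0.98.

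**Figure D3:**
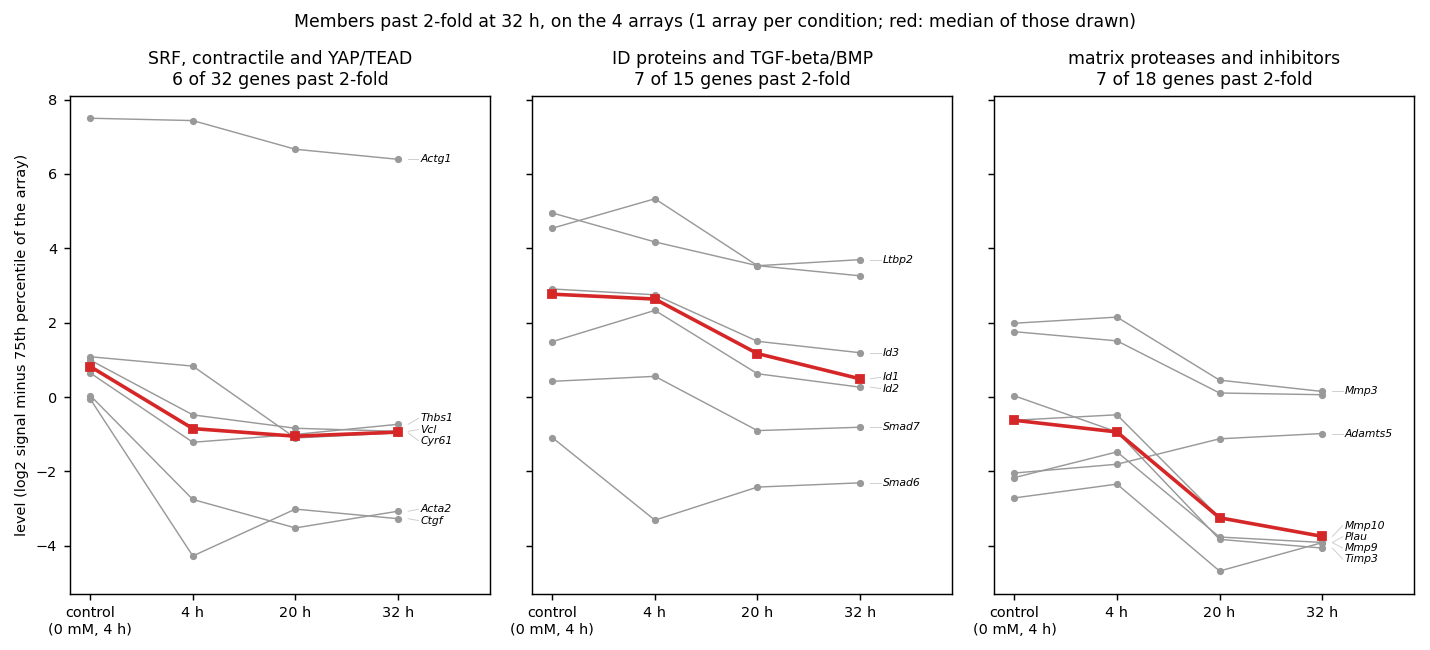
Levels on the 4 arrays (y axis, log2 signal minus the 75th percentile) of the genes past 2-fold at 32 h in the contractile and YAP/TEAD lists (left), the ID and Smad list (middle) and the matrix protease list (right), each grey line 1 gene (not all are labelled) and the red line their median. All drawn genes except *Adamts5* were lower at 32 h than in the control, *Id1* for example at 0.49 against 2.77.

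Immediate early genes had no common direction at 32 h. Of 21 measured, 3 were at least 2-fold lower, against 1.49% of all genes, and none was higher, against 1.11%. The median was 0.13. *Egr1* had levels of 1.56, 2.96, -0.47 and -0.58 (4.42-fold lower), the related *Egr2* was at log2 -2.08 ± 0.32, and *Klf4* had 1.77, 3.88, 1.0 and 0.65. *Egr1* and *Klf4* were higher than the control at 4 h and lower at 20 h and 32 h. *Fosl1* was at -0.57 and *Myc* at -0.71, whereas *Fosl2* was at 0.63 and *Klf6* at 0.57.

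Secreted signals were low in part. *Cxcl10*, a chemokine of the interferon and NF-kappa-B responses, had levels of 1.61, 1.5, -0.67 and -0.81 (5.33-fold lower). *Hbegf*, a ligand of the EGF receptor, had -0.24, 0.73, -2.02 and -1.79 (2.93-fold lower), and *Igfbp4* was 2.09-fold lower. Both *Cxcl10* and *Hbegf* were near or above the control at 4 h. The brightest probe of *Csf1*, a macrophage growth factor, gave log2 -0.85, while a pair of others gave -1.80 and -1.79. The probes of *Mdk* disagreed, with -1.50 and 0.37. *Hgf* and *Fgf10*, growth factors that mesenchymal cells make for epithelia, were at 0.64 and 0.63. Over the 17 measured growth factor genes 3 were at least 2-fold lower, against 1.49% of all genes, none was higher and the median was -0.40.

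Of the 15 largest falls in brightly measured genes, those outside the lists were *5430431A17Rik* with levels of 0.99, 1.85, -1.32 and -1.64 (6.20-fold lower), the growth regulator *Cgref1* with 2.74, 3.03, 0.18 and 0.25 (5.65-fold), *U90926* with 1.62, 0.37, -1.44 and -0.80 (5.36-fold), and *Prrx2*, a homeobox factor of mesenchyme, with 3.49, 1.07, 1.47 and 1.08 (5.32-fold). *Prrx2* was low on every pulsed array, and the first 2 were above the control at 4 h. *Csrp2*, a LIM protein, was 3.92-fold lower, the steroid reductase *Akr1c18* 3.86-fold and the chondrocyte factor *Sox9* 3.60-fold. Among dimmer probes *Wisp2* had -0.16, -2.69, -3.37 and -3.34 (9.05-fold lower).

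Of the structural matrix genes, 3 passed 2-fold, all of them lower, against 1.49% of all genes. Of 16 measured collagen chains 13 were below 0, against 46.8% of all genes (median -0.26), and *Col5a2* passed 2-fold, at log2 -1.62 ± 0.31. Among 20 matrix glycoproteins and crosslinkers, the small proteoglycan *Bgn* had levels of 1.49, 1.03, -0.64 and -0.22 (3.26-fold lower), and *Thbs1* was the other past 2-fold. Of the 20, 12 were below 0, and the median was -0.17, or 0.01 without scaling.

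The cell cycle lists lay below the control by less than 2-fold. Of 27 measured genes of G2/M and mitosis, 26 were below 0 and none passed 2-fold, with a median of -0.46 at 32 h, -0.09 at 20 h and -1.47 at 4 h. Of 29 genes of DNA replication and G1/S, 28 were below 0 and none passed 2-fold, with medians of -0.45, -0.30 and -1.03 at the same arrays. Over all genes 46.8% were below 0. Under the other settings of scaling and background between 25 and 26 of the mitotic and 27 and 28 of the replication genes stayed below 0.

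Named members were close to each other. *Mki67*, a mark of cycling cells, had levels of 3.15, 0.97, 3.01 and 2.58, and *Ccna2*, cyclin A2, 1.81, -0.93, 1.55 and 1.10. *Kif23*, a kinesin of cytokinesis, was at log2 -0.79, *Cdc6*, which licenses replication origins, at -0.93, and *Mcm5*, a subunit of the replicative helicase, at -0.75. In each, the array at 4 h was the lowest, and that at 20 h lay between the control and 32 h. *Ccnd1*, cyclin D1, which responds to growth factors, was past 2-fold with 2.35, 0.86, 1.18 and 1.05 (log2 -1.30 ± 0.20). *Cdkn1a*, the cell cycle inhibitor p21, had 0.40, 3.97, 1.70 and 1.72 (2.49-fold higher), although a second measured probe, at much lower signal, gave -0.49.

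**Figure D4:**
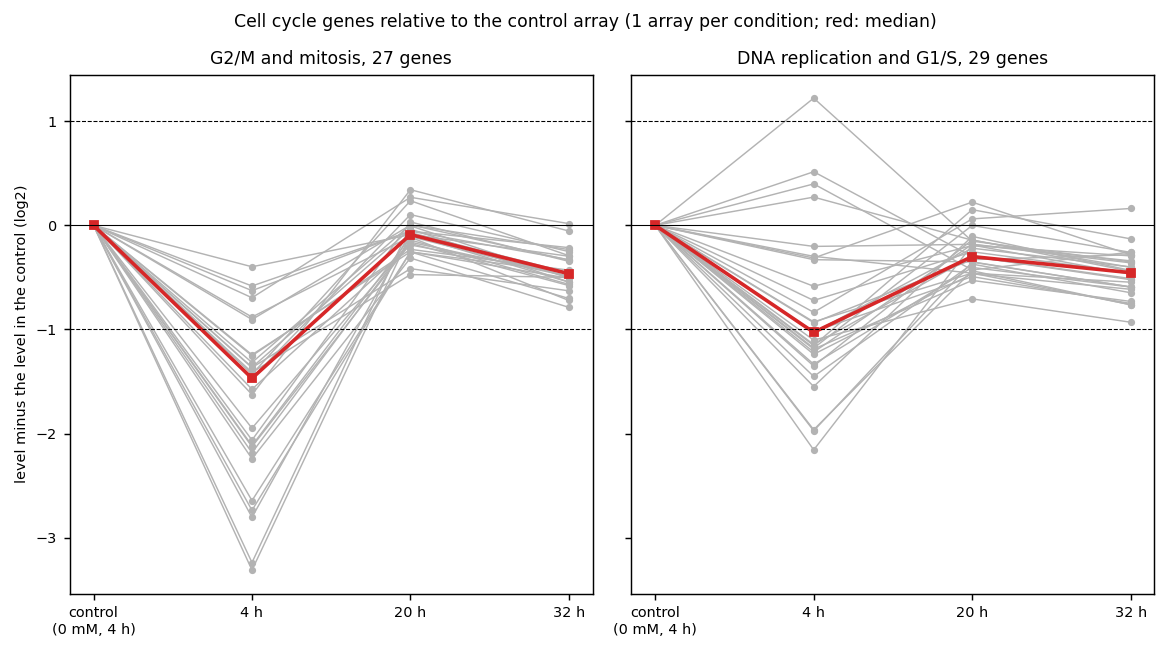
Level minus the level in the control (y axis, log2) for 27 genes of G2/M and mitosis (left) and 29 of DNA replication and G1/S (right) on the 4 arrays, each grey line 1 gene, the red line the median and dashed lines 2-fold. At 32 h the medians were -0.46 and -0.45, with no gene past 2-fold.

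The stress and clock programs that the study set out to follow were near the control at 32 h. HSF1 targets, the chaperones of the heat shock response, had a median of 0.01 over 18 genes with none past 2-fold, against 0.57 at 4 h. Nrf2 targets, enzymes against oxidants, had -0.14 over 24 genes, against 0.80 at 4 h, and this sign turned when scaled to the spike-ins (0.01) or not at all (0.04). The glutathione conjugate exporter *Abcc1*, with levels of 2.16, 2.50, 0.85 and 0.84, and the quinone reductase *Nqo1*, with -1.29, -1.15, -1.26 and -2.33, were the 2 past 2-fold, and both were lower. Among all genes, 1.49% were at least 2-fold lower. *Cat*, catalase, was at -0.81 and *Prdx6* at -0.59, while *Ephx1* was at 0.70. The ATF4 list had a median of -0.04 over 27 genes, positive with quantile normalization (0.05), spike-in scaling (0.11) and no scaling (0.14). For both lists, the shift with spike-ins rests on 1 spike-in probe. Its members spread from *Nupr1* at 0.90 and *Chac1* at 0.86 to *Phgdh* at -0.91 and *Slc7a5*, the one past 2-fold, at -1.64 by its brightest probe and 0.10 by its other.

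p53 targets had a median of 0.26 over 20 genes, 16 of them above 0, against 53.2% of all genes. Past 2-fold were *Cdkn1a* and *Trp53inp1*, an autophagy-linked target of p53, with levels of 0.75, 2.45, 1.85 and 1.90 (log2 1.15 ± 0.20), and none was lower. Both were highest at 4 h. The share of all genes at least 2-fold higher at 32 h was 1.11%. Genes of endoplasmic reticulum folding had a median of 0.20 with 19 of 21 above 0, and autophagy and lysosome genes 0.19 with 23 of 26 above 0, against the same 53.2%. No gene of either list passed 2-fold. Both medians were about the size of the median spot error of 1 ratio, 0.20. Leaving out the scaling shifted all ratios by 0.18.

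Of the clock genes, *Nfil3*, a repressor of D-box genes, was past 2-fold, with levels of 2.69, 3.30, 3.70 and 3.84 (2.22-fold higher at 32 h). It was higher on each pulsed array than in the control. Among all genes, 1.11% were at least 2-fold higher at 32 h. The clock activator gene *Arntl* had -0.08, 1.0, -0.75 and 0.10, *Clock* 0.11, 0.77, 0.08 and 0.13, and *Per1* 0.78, 1.25, 0.95 and 0.78. Their ratios at 32 h were 0.18, 0.02 and 0.01, within the spot error of 0.20. *Cry2* was at 0.39, *Rora* at 0.46 and *Nr1d1* at -0.22 ± 0.23. *Dbp*, a direct target of the activators, had levels of -0.05, -1.39, 0.65 and -0.02 (log2 ratio of 0.03 at 32 h). The control is labelled 4 h, so a clock ratio near 0 compares single arrays at unlike times, and a rhythm was not tested. *Per2*, *Per3* and *Cry1* were not well above background on both arrays. The 8 genes of CK2 and the clock kinases lay between -0.09 and 0.26.

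Housekeeping lists set the scale for these values. The 34 cytosolic ribosomal protein genes had ratios between -0.42 and -0.03 (median -0.20), a median that was -0.02 without scaling. Nuclear-encoded oxidative phosphorylation (26 genes) had 0.03 and the proteasome (26 genes) 0.04, with none past 2-fold in the 3 lists. Of 12 measured core histone genes, *Hist1h2bc* was 2.52-fold higher, and the median was 0.33. Of 14 interferon-stimulated genes measured, *Usp18* was past 2-fold, at log2 1.19 ± 0.31. NF-kappa-B targets and cytokines had a median of 0.02 over 23 genes, with *Cxcl10* and the IL-33 receptor gene *Il1rl1* (log2 -1.10 ± 0.20) at least 2-fold lower. Glycolysis and hypoxia genes had a median of -0.01 over 25 genes, complement and acute phase genes 0.01 over 10 and metallothioneins and zinc transporters -0.26 over 7, none past 2-fold. The medians of these 4 lists changed sign under at least 1 alternative each. For the counts in this paragraph, the shares of all genes were 1.11% at least 2-fold higher and 1.49% lower.

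**Figure D5:**
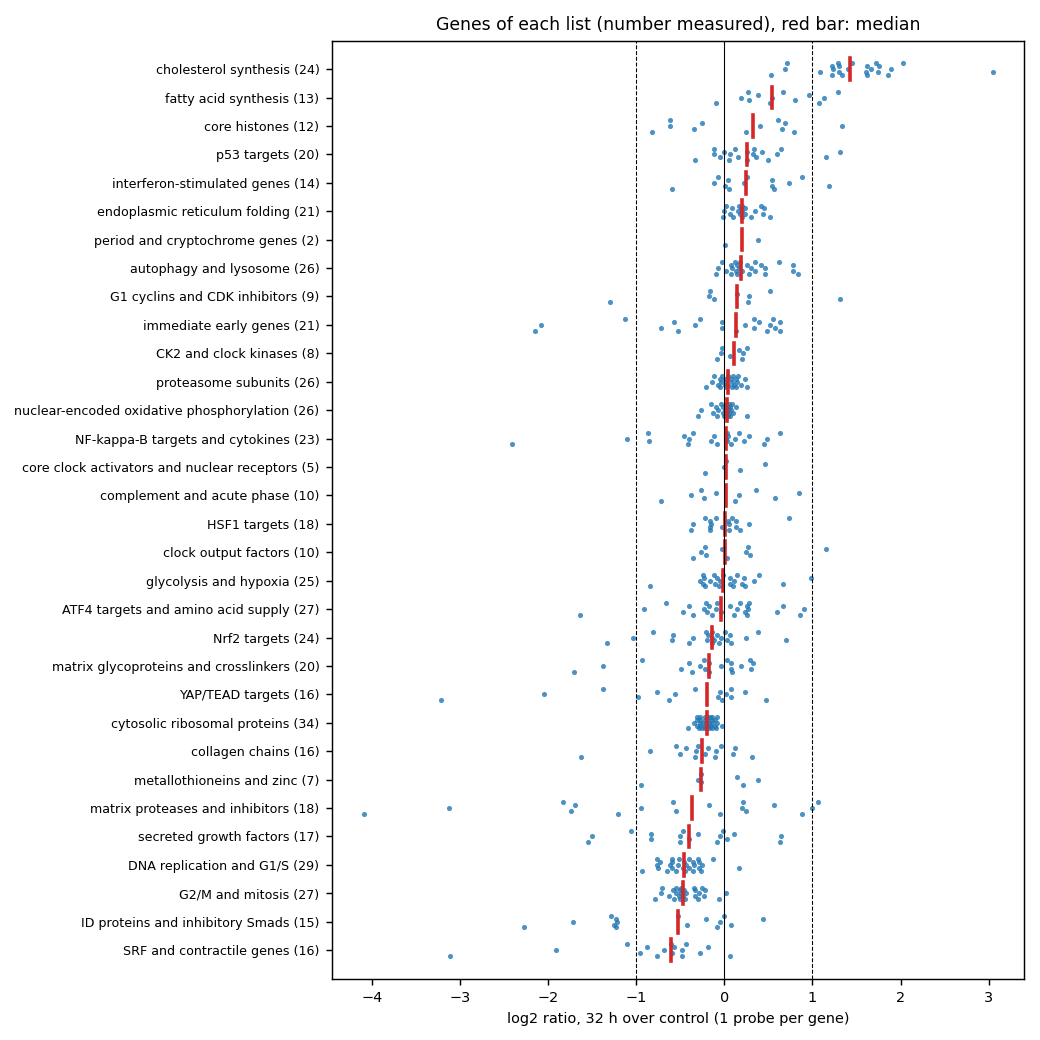
Log2 ratio of 32 h over control (x axis) for each measured gene (blue points, 1 probe per gene) of the 32 lists, in order of the median (red bar), with the number measured in brackets and dashed lines at 2-fold. Cholesterol synthesis stands at the top with a median of 1.43, and the SRF and contractile list at the bottom with -0.60.

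Beyond the measured ratios, 793 probes passed detection on the 32 h array of the pair alone, and 1088 on the control array alone. By a bound that set the other array to its lowest signal well above background, or to the own signal of the probe where higher, 243 were at least 2-fold higher and 266 at least 2-fold lower. The largest bounds toward 32 h were those of *Cpne4* (at least 9.58-fold), *Dpys* (9.33-fold), *Olfr1156* (8.98-fold), *Vnn1* (7.71-fold) and *4921506M07Rik* (7.55-fold). None of these probes was well above background at 4 h or 20 h either, so each bound rests on 1 probe on 1 array. Toward the control the largest bounds were those of *Vmn1r183* (at least 14.4-fold), *Impg2* (10.696-fold), *Myl9* (9.78-fold), *Trib1* (9.66-fold) and *Atp1b2* (7.79-fold). *Olfr1156* and *Vmn1r183* encode chemosensory receptors that fibroblasts are not known for, and each was seen by 1 probe on 1 array of the pair.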

How the data were processed

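Total RNA of NIH-3T3:Per2-Luc cells was hybridized to 4 one-color Mouse GE 4x44K v2 arrays. The authors deposited spot intensities of Agilent Feature Extraction 10.7.3.1, with background subtracted, and a value table that equals these intensities over a single constant for each array (to within 0.000122%). Log2 processed intensity was averaged over unflagged spots of each probe, minus the 75th percentile of the array. A probe was measured where the flag for signal well above background was set for 50% or more of its spots, on both arrays. Gene symbols came from the deposited files, and 31204 probes (79.1%) matched RefSeq symbols. Lists used the brightest measured probe of each gene. Named were the 15 largest changes each way among brighter probes, the 5 largest among dimmer ones, the 5 largest bounds, and list members. The members and lists were chosen with earlier results of these data known. The named SAM test (two-class paired) needs replicates and was not run. Alternatives covered scaling, normexp (limma 3.58.1, R 4.3.3), detection, fold and probe choice. Python 3.11.15, numpy 2.4.6 and pandas 2.3.3 were used. The number of arrays limits the precision. A few genes of the lists are not reported by name.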

Additional observations from a re-analysis of the deposited data

Results flagged for a closer look

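Among the list members, each by its brightest probe, and the largest changes of brighter probes, 5 genes lay past 2-fold in opposite directions at 4 h and at 32 h. Both comparisons share the control array, and the difference between the times was not tested. Of the 19731 probes measured on the control, 4 h and 32 h arrays, 15 were at least 2-fold lower at 4 h and higher at 32 h, and 13 the reverse. *Egr1*, an immediate early transcription factor, had a log2 ratio over the control of 1.39 at 4 h and -2.15 at 32 h. *Klf4* had 2.11 and -1.13. *Slc7a5*, an amino acid transporter, had 1.70 and -1.64 by its brightest probe, and 1.51 and 0.10 by its other. *Mvk*, mevalonate kinase, had -1.28 and 1.22. *Cdo1*, cysteine dioxygenase, had -1.03 and 1.48.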

How the results depend on the processing

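With 1 array per condition, the spread between cultures cannot be given, and the spot error covers the spot only. No paired analysis was possible because each condition had 1 array. Depth here is the signal over background, which limits the dimmer probes. Spike-in scaling and no scaling shifted all ratios by 0.15 and 0.18 on the log2 scale. The shift with spike-ins rests on 1 of 8 probes (log2 -1.01 at 32 h before scaling, the other 7 between 0.14 and 0.22). Without it, chosen after seeing the data, the shift was 0.003.

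Against 209 probes higher and 299 lower, the counts were 102 and 190 with normexp, 735 and 917 for positive and significant signals, 1617 and 1828 without a detection filter, 452 and 565 with bounds added, 810 and 1046 at 1.5-fold, 46 and 71 at 3-fold, 138 and 186 with 1 probe per gene symbol, and 55 and 101 for the brighter probes only, an alternative chosen after seeing the data. Higher probes numbered 333 after spike-in scaling and 363 unscaled. The share of higher probes, 41.1%, was 60.5% when scaled to the spike-ins, 63.6% unscaled, 34.9% with normexp, 46.9% without a detection filter and 35.3% for the brighter probes. Of 352 list medians under alternatives, 2 moved by more than the median spot error of 0.20. With the median over the measured probes of a gene, ID proteins and inhibitory Smads had -0.98, and metallothioneins and zinc transporters turned from -0.26 to 0.012. Other list medians that changed sign stayed within that error. None of the 360 values of the 40 named probes changed sign, and 16 moved by more than the spot error of the probe. Normexp brought dim probes nearer to 0, with log2 ratios of -3.22 for *Timp3*, -2.60 for *Ctgf*, -2.53 for *Acta2*, -2.44 for *Wisp2*, -2.37 for *Mmp10*, 1.77 for *Nbeal2*, 1.55 for *Abcg4*, 1.90 for *Tnfsf14* and 1.36 for *BC106175*. The cause of these changes was not tested.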
